A study of Mus musculus with 207 samples.

Results

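Cecal expression was compared between breeding lines of the incipient Collaborative Cross (CC) with high and with low Gsta1, 21 lines each (43 and 42 mice), of 86 lines with 2 or more mice and 113 lines in all. The members were chosen by their own Gsta1 level: lines were ordered by the mean of the brightest of 3 Gsta1 probes, and the 21 lines at the top and the 21 at the bottom were taken, so the Gsta1 difference between them is a description and carries no test. The remaining 44 lines are called the middle lines. Cecal RNA was measured on 1 array per mouse, in mice bred at Oak Ridge National Laboratory. All mice, of high, middle and low lines alike, were adults kept on standard chow and descended from the 8 founder strains of the CC, common laboratory and wild-derived inbred strains, and they were still being inbred, so a line is not 1 fixed genotype. Mice of this breeding population went through behavioural and physiological tests, among them sleep recording, a hot plate, tail clipping and fasting glucose, and which of the mice used here did so was not given in the sources used here. Each line usually gave 1 female and 1 male, caged singly or with siblings of the same sex and apart from other lines. The high lines held 21 females, 20 males and 2 mice of unclear sex, and the low lines 21 females and 21 males. The last number of the animal labels falls into a low and a high series whose meaning no source used here states, and 11 of 21 high lines and 9 of 21 low lines were of the high series. Values are log2 of the deposited array intensity, and the array medians overlapped between the groups (72.5 to 97.7 in mice of high lines and 71.4 to 86.5 in mice of low lines, linear intensity).

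Gsta1 encodes an alpha-class glutathione S-transferase. These cytosolic enzymes join the tripeptide glutathione to electrophilic compounds from food, drugs, microbes and lipid peroxidation, and the gut epithelium is one of the places where they are abundant. In the mouse, Gsta1 and its close copy Gsta2 are known as inducible genes, and the transcription factor NRF2, held back by KEAP1, is the best known route of induction. Gsta4, next to them, is known for clearing 4-hydroxynonenal, a product of lipid peroxidation.

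In GRCm38.p6, Gsta1 lies at 78230669 to 78242683 on chromosome 9, with Gsta4 before it (78191966 to 78209349) and Gsta2 after it (78331018 to 78347192). Gm3776 and Gm10639, 2 more genes annotated as protein-coding, lie between Gsta1 and Gsta2 and had no probe on this array. The promoter sequences of Gsta1 and Gsta2 are shown because probes annotated to both were higher in high lines. Whether those probes read separate genes was not tested. Both are windows of 300 bases from RefSeq (GRCm38.p6). The Gsta1 window, chr9:78230419-78230718 on the plus strand, runs from 250 bases before to 50 bases after the gene start. The Gsta2 window, chr9:78347096-78347395 on the minus strand, holds the gene limit given above (78347192) but is not so placed around it. Capitals mark stretches of 12 or more bases that are identical in the alignment of the 2 sequences.
Gsta1: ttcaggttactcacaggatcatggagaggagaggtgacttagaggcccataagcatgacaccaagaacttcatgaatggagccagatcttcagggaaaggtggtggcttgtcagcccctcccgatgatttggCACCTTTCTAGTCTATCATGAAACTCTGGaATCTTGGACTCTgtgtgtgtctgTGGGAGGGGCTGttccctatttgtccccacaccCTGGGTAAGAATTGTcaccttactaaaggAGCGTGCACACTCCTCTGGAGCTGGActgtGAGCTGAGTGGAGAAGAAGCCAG
Gsta2: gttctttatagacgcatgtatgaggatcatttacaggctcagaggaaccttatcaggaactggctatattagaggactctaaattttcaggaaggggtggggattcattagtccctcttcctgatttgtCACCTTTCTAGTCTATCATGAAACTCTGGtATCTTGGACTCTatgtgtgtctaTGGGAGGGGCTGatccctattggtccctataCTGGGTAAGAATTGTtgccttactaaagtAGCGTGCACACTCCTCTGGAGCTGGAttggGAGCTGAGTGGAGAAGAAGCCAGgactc
Of 289 aligned bases, 232 (80.3%) were identical, and the longest of 6 identical stretches had 29 bases. The antioxidant response core TGACNNNGC was searched on both strands and was in neither window, while 12.5% of 27025 promoters of this length held it. The match, or its lack, describes these letters only, and sequence farther from the genes was not searched.

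Gsta1 differed widely between lines. Over the 86 lines the brightest probe ran between 6.92 and 13.33 with a median of 9.87, an 85.1-fold range. In high lines the lowest line mean was 10.51, the median 11.92 and the highest 13.33, while in low lines the lowest was 6.92, the median 8.96 and the highest 9.31. The values were thinly spaced at the ends and dense between them: 10 lines were above 12, 3 lines were below 8, and the 44 middle lines lay between 9.34 and 10.49. The boundaries cut through that dense stretch, with the last line outside the high group at 10.49 beside 10.51 just inside it, and the first line outside the low group at 9.34 beside 9.31 just inside it. The group means were 11.79 ± 0.84 in high lines and 8.69 ± 0.63 in low lines (SD over 21 lines each), 8.53-fold apart. The other 2 Gsta1 probes, which the choice of lines did not use but which read the same gene, differed by 2.99 and 2.69 on the log2 scale, and every high line lay above every low line on both.

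Single mice overlapped more than line means. Gsta1 ran between 9.29 and 13.61 with a median of 11.95 in the 43 mice of high lines, and between 6.67 and 9.98 with a median of 8.76 in the 42 mice of low lines. Of the 43 mice of high lines, 35 were above every mouse of the low lines. Of the 20 high lines with a mouse of each sex, 16 had both mice above the median line, and of the 21 low lines 20 had both mice below it. The plot of Gsta1 by line shows wide gaps between the female and the male in several lines of the lower part of the high group, whose mean was carried by 1 of the mice.

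**Figure D1:**
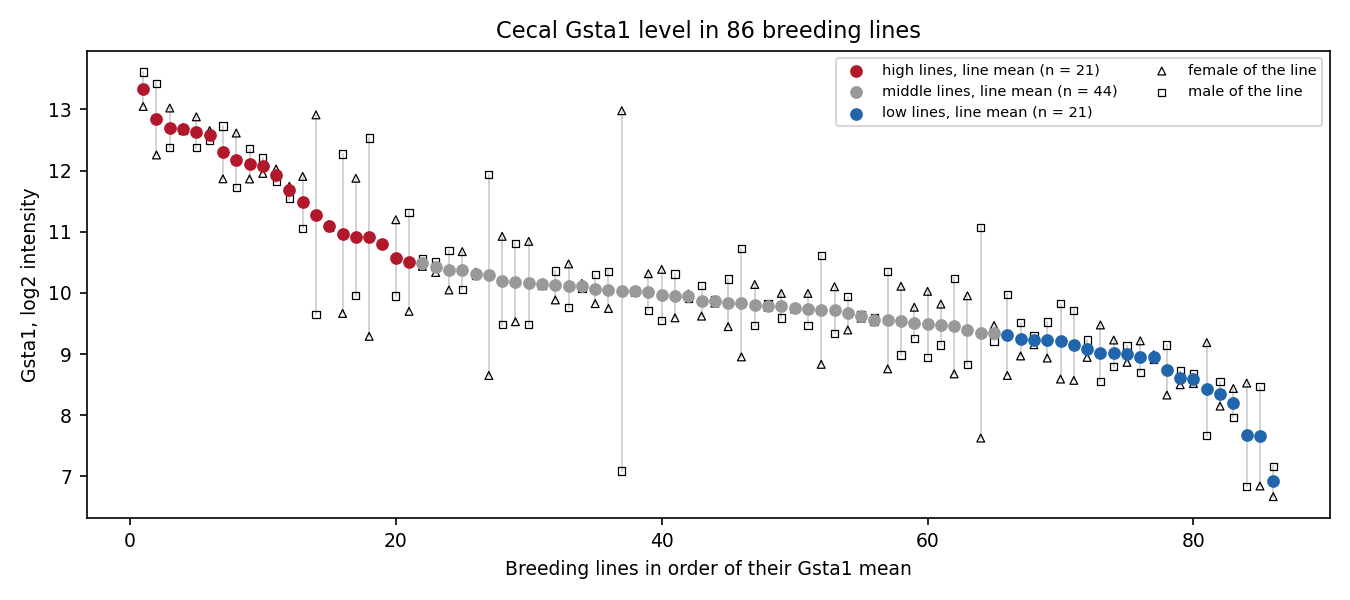
Gsta1 level (log2 intensity, brightest probe) in 86 breeding lines in descending order. Filled points are line means (21 high, 44 middle and 21 low lines), and open triangles and squares are its female and its male, joined by a grey bar. The line means run between 6.92 and 13.33, and in 4 middle lines 1 sex was among its 21 highest and the other among its 21 lowest.

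The level of Gsta1 was correlated between mice of opposite sex within a line. Over the 85 lines with both, the Pearson correlation was 0.569 and Spearman's rho 0.477 (permutation test with 100000 permutations, two-sided, p = 1e-05 for each, the smallest they can give). The correlation was 0.518 without the 2 lines with the most extreme females, 0.508 in the 47 lines of the low number series and 0.668 in the 38 lines of the high series. Gsta2 (r = 0.651, rho = 0.515), Gsta4 (r = 0.432, rho = 0.447) and Myo5c (r = 0.398, rho = 0.381) were also correlated between the sexes. Gclc was not detectably so (r = -0.052, rho = -0.084, permutation p = 0.635 and 0.444). Adjusted over these 5 relations, the permutation p-values for r were 2.5e-05 for Gsta1 and Gsta2, 6.67e-05 for Gsta4 and 0.00015 for Myo5c. Female and male still differed by over 2 log2 units of Gsta1 in 6 of 85 lines, and the largest gap was 5.89. The median gap was 0.60.

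The choice of lines was therefore repeated on 1 sex and measured in the other, which tests Gsta1 in mice that did not enter the choice. In males of lines chosen on their females, Gsta1 averaged 11.29 ± 1.62 in the 21 high lines and 9.40 ± 1.25 in the 21 low lines, with a lowest, median and highest of 7.09, 11.72 and 13.61 in high lines and of 6.84, 9.51 and 11.93 in low lines. The difference was 1.89 on the log2 scale, 3.71-fold, and 18 of 21 males of high lines were above the median male of the low lines (permutation test with 100000 permutations, two-sided, p = 0.00025). In females of lines chosen on their males, Gsta1 averaged 11.19 ± 1.66 in the 21 high lines and 9.06 ± 1.27 in the 21 low lines, with a lowest, median and highest of 7.63, 11.86 and 13.05 in high lines and of 6.67, 8.99 and 12.98 in low lines. The difference was 2.13, 4.39-fold, again with 18 of 21 above the median (permutation test, p = 7e-05). Adjusted for the 2 comparisons, these permutation p-values were 0.00025 and 0.00014. The groups overlapped in both, which they could not do in the contrast of line means. The 21 highest lines by females and by males had 14 lines in common, the 21 lowest had 10, and 4 lines were high by 1 sex and low by the other.

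No probe passed over the whole array in these cross-sex fits, Gsta1 included. Its limma adjusted p was 0.312 in males and 0.276 in females, with 0 of 45281 probes called in each and 6.27% and 12.4% of probes at an unadjusted p under 0.05. Gsta2 differed by 2.03 ± 0.41 in males and 2.06 ± 0.43 in females (estimate ± SE, limma adjusted p = 0.180 and 0.276). Gsta4 differed by 0.47 ± 0.14 and 0.63 ± 0.20 (adjusted p = 0.706 and 0.354).

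Between the high and the low lines, 1 of the 45278 other probes passed at an adjusted p under 0.05, that of Gsta2, which was higher in high lines (0.00221% of probes called higher). None was called lower, with 777 probes (1.72%) at an unadjusted p under 0.05 in either direction, 582 of them higher. In high lines Gsta2 ran between 9.03 and 12.32 with a median of 10.77, and in low lines between 6.91 and 8.26 with a median of 7.66. The 2 groups of lines did not overlap, which among the 11840 genes above background held for Gsta2 alone (0.00845%). The means were 10.71 ± 0.99 in high lines and 7.70 ± 0.34 in low lines (SD, 21 lines each), a difference of 3.01 with an SE of 0.22, 8.05-fold (limma, adjusted p = 1.99e-12). The difference was 3.00 in females alone, 3.09 in males alone, 3.23 in the low number series and 2.76 in the high series. Gsta2 was read by 1 probe, and the probe letters were not used here, so whether that probe and the Gsta1 probes each read 1 gene or several of the alpha-class copies was not tested. The value is therefore given as uncertain between Gsta1, Gsta2, Gm3776 and Gm10639.

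Gsta4 came next but did not pass. It ran between 8.22 and 10.003 with a median of 9.35 in high lines, and between 7.53 and 9.37 with a median of 8.62 in low lines. Of the 21 high lines, 10 were above every low line. The difference was 0.68 with a 95% interval of 0.40 to 0.96, 1.6-fold (limma, adjusted p = 0.265). It passed in the slope on Gsta1 over all 86 lines (0.23 log2 units of Gsta4 per log2 unit of Gsta1, adjusted p = 0.00453) and in single mice with the line as a random block (adjusted p = 0.0117). The block fit set the within-line correlation of every probe to 0.0995, while that of Gsta4 between female and male was 0.432. Its p-value for Gsta4 may therefore be too small. Myo5c, an unconventional myosin of epithelial cells, lies 3.00 Mb before Gsta1. It ran between 7.66 and 9.06 with a median of 8.43 in high lines and between 6.94 and 8.53 with a median of 8.04 in low lines, a difference of 0.41 with an SE of 0.10 (limma, adjusted p = 1.0), and it passed only in the slope over all lines (0.14 per log2 unit, adjusted p = 0.0245). A second Myo5c probe was not above background.

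**Figure D2:**
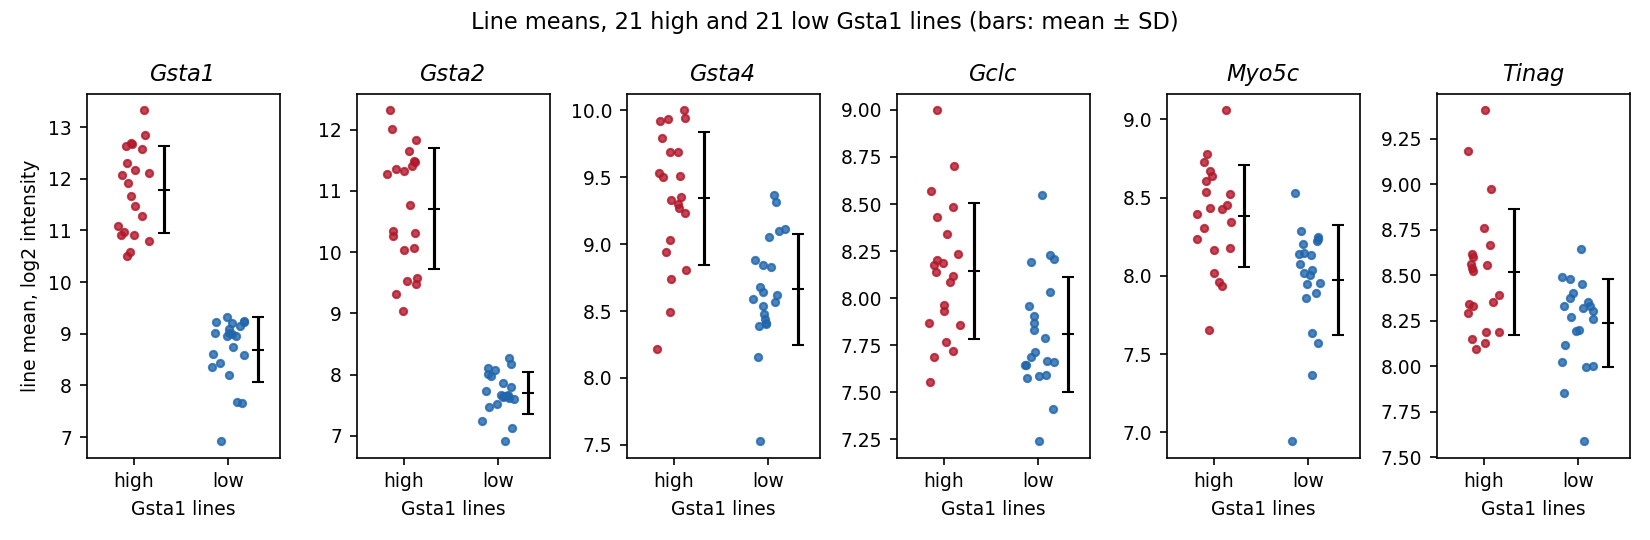
Line means of Gsta1 (which chose the lines), Gsta2, Gsta4, Gclc, Myo5c and Tinag in the 21 high lines (left, red) and the 21 low lines (right, blue), in log2 intensity, each panel on its own scale. Bars are mean ± SD. Gsta1 and Gsta2 do not overlap, and the other genes do.

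Gsta1 and Gsta2 did not climb evenly over the lines. In 4 groups of lines ordered on the brightest Gsta1 probe, low to high (21, 22, 22 and 21 lines), Gsta2 averaged 7.70, 8.34, 8.65 and 10.71. The other 2 Gsta1 probes had the same shape, with 7.37, 7.95, 8.32 and 10.06 for the brighter one and 7.32, 7.91, 8.03 and 10.30 for the dimmer. Gsta4 averaged 8.66, 8.99, 9.15 and 9.34, with its largest step between the lowest groups. Gsta3, an alpha-class gene on chromosome 1, had 8.84, 9.35, 9.48 and 8.99 and so no order. These means were set by the choice of lines and are a description. Within the 44 middle lines, which the contrast did not use, the slope of Gsta2 was 0.54 ± 0.23 log2 units per log2 unit of Gsta1 (limma, estimate ± SE, adjusted p = 0.180) and that of Gsta4 was 0.40 ± 0.26 (adjusted p = 0.325). The brightest Gsta1 probe spanned only 1.16 log2 units there, since the middle lines were cut on it. The other probes gave another picture. In the 44 middle lines Gsta2 had r = 0.338 with the brightest Gsta1 probe, 0.914 with the second and 0.906 with the dimmest. The second and the dimmest Gsta1 probe had r = 0.758 with each other. These Gsta2 correlations carry no test, and whether the probes read separate genes was not tested. Another 6 relations among the 44 middle lines, chosen after the probes' values were seen, were tested by permutation (100000 permutations, two-sided). Gsta4 had r = 0.228 and rho = 0.165 with the brightest Gsta1 probe (permutation test, p adjusted over the 6 relations = 0.166 for r and 0.288 for rho). With the second Gsta1 probe Gsta4 had r = -0.283 and rho = -0.265 (permutation, adjusted p = 0.0967 and 0.1), with the dimmest r = -0.636 and rho = -0.478 (6e-05 and 0.00366) and with Gsta2 r = -0.455 and rho = -0.417 (0.00428 and 0.00976). The sign of the Gsta4 relation in the middle lines thus depended on the probe. Without the 2 lines most extreme on the other gene's probe these 4 correlations were 0.14, -0.35, -0.554 and -0.503. Within the 26 middle lines of the low number series they were 0.031, -0.286, -0.667 and -0.467, and within the 18 of the high series 0.446, -0.287, -0.608 and -0.447. Over all 86 lines the same 4 correlations were all positive, at 0.52, 0.4, 0.239 and 0.356. The cut on the brightest probe can itself change correlations within the middle lines. Gsta1 of female and male had r = -0.675 in the 44 middle lines against 0.569 over 85 lines. The permutation p-values in the middle lines therefore cannot separate a relation between the genes from the cut. The brightest Gsta1 probe itself had r = 0.449 and rho = 0.514 with the second probe (permutation, adjusted p = 0.00428 and 0.00258) and r = 0.114 and rho = 0.299 with the dimmest (0.463 and 0.0733). Without the 2 most extreme lines these were r = 0.432 and 0.292, with 0.62 and 0.389 in the low number series and 0.205 and -0.259 in the high series. No probe passed in the middle lines, although 22.7% of the 45278 probes had an unadjusted p under 0.05, and 9877 of these 10267 had a positive slope.

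**Figure D3:**
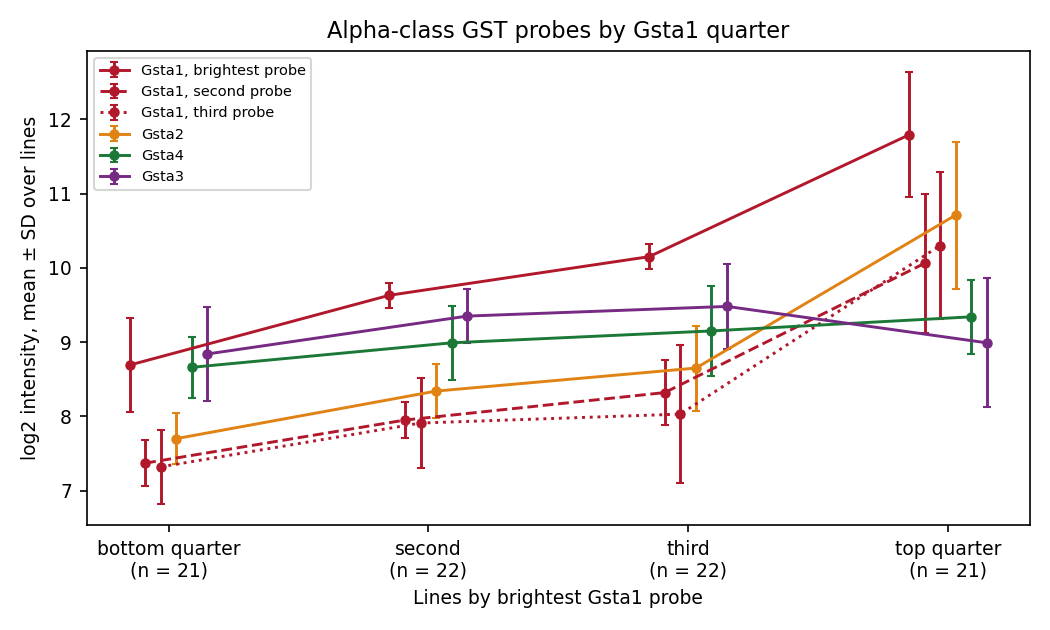
Mean ± SD over lines (log2 intensity) of alpha-class glutathione transferase probes in 4 groups of lines, ordered low to high on the brightest Gsta1 probe (n = 21, 22, 22 and 21 lines). Points are shifted sideways for clarity. Gsta2 and the other Gsta1 probes take their largest step into the top group, and Gsta4 does not.

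Outside the alpha-class cluster of chromosome 9, no glutathione transferase of the list had an unadjusted p under 0.05. All 24 members of the list other than Gsta1, with Gsta2 and Gsta4 among them, were above background, while Gstt4, which the list did not hold, was not (mean 6.16). Gsta2 passed, 2 members (Gsta2 and Gsta4) were higher at an unadjusted p under 0.05 and 0 lower, against 1.68% higher and 0.904% lower of all 11840 genes above background. The family's median difference was 0.07, beside 0.006 over all genes. Gsta3 differed by 0.15 ± 0.23 (estimate ± SE). The pi-class gene Gstp1 had 10.96 ± 0.51 in high lines and 10.97 ± 0.40 in low lines. The mu-class gene Gstm2 had the largest negative value, -0.49, with a 95% interval of -1.06 to 0.08, and Gstk1, on chromosome 6, had 0.27 with an interval of -0.17 to 0.70. For these genes a difference of the size of Gsta2's lies outside the interval, while a difference of the size of Gsta4's lies outside it for Gstp1 (-0.29 to 0.26) but not for Gstk1.

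Glutathione itself is made in 2 steps, of which glutamate-cysteine ligase, with its catalytic subunit Gclc and its modifier Gclm, is the limiting one. Of 18 members of the synthesis and turnover list above background, 0 passed, and 2 were higher at an unadjusted p under 0.05, Gclc and Gpx2, against 1.68% of all genes above background, with a list median of 0.05. Gclc ran between 7.55 and 9.0 with a median of 8.14 in high lines and between 7.24 and 8.55 with a median of 7.71 in low lines, a difference of 0.33 ± 0.10 (limma, estimate ± SE, adjusted p = 1.0). Gclc also lies 0.48 Mb before Gsta1. Gclm, on another chromosome, differed by 0.17 with a 95% interval of -0.04 to 0.37.

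No member of the NRF2 target list passed. That list did not hold Gsta2, Gsta4, Gclc or Gpx2, which were counted in the 2 lists above. Of its 21 members above background, 16 had a positive and 5 a negative difference. The median was 0.08, beside 0.006 over all genes. At an unadjusted p under 0.05, 1 of the 21 was higher, against 1.68% of all genes above background. The mean over the 21 genes was 9.61 ± 0.17 in high lines and 9.50 ± 0.14 in low lines. The 1 member at an unadjusted p under 0.05 was Me1, the cytosolic malic enzyme that makes NADPH, at 7.96 ± 0.90 in high lines and 7.24 ± 0.86 in low lines (difference 0.71 ± 0.26, limma adjusted p = 1.0), and it too lies on chromosome 9, 8.35 Mb after Gsta1. The quinone reductase Nqo1, a standard readout of NRF2, had 8.35 ± 0.63 in high lines and 8.31 ± 0.44 in low lines, with an interval of the difference of -0.29 to 0.37. Its sign was positive in 13 of 18 alternatives. Heme oxygenase Hmox1 had 6.28 ± 0.32 in high lines and 6.29 ± 0.23 in low lines, near the background of 6.31. Of 9 pathway regulators, among them Nfe2l2 (NRF2 itself, 0.06 ± 0.10) and Keap1 (0.06 ± 0.08), none passed and none was at an unadjusted p under 0.05.

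**Figure D4:**
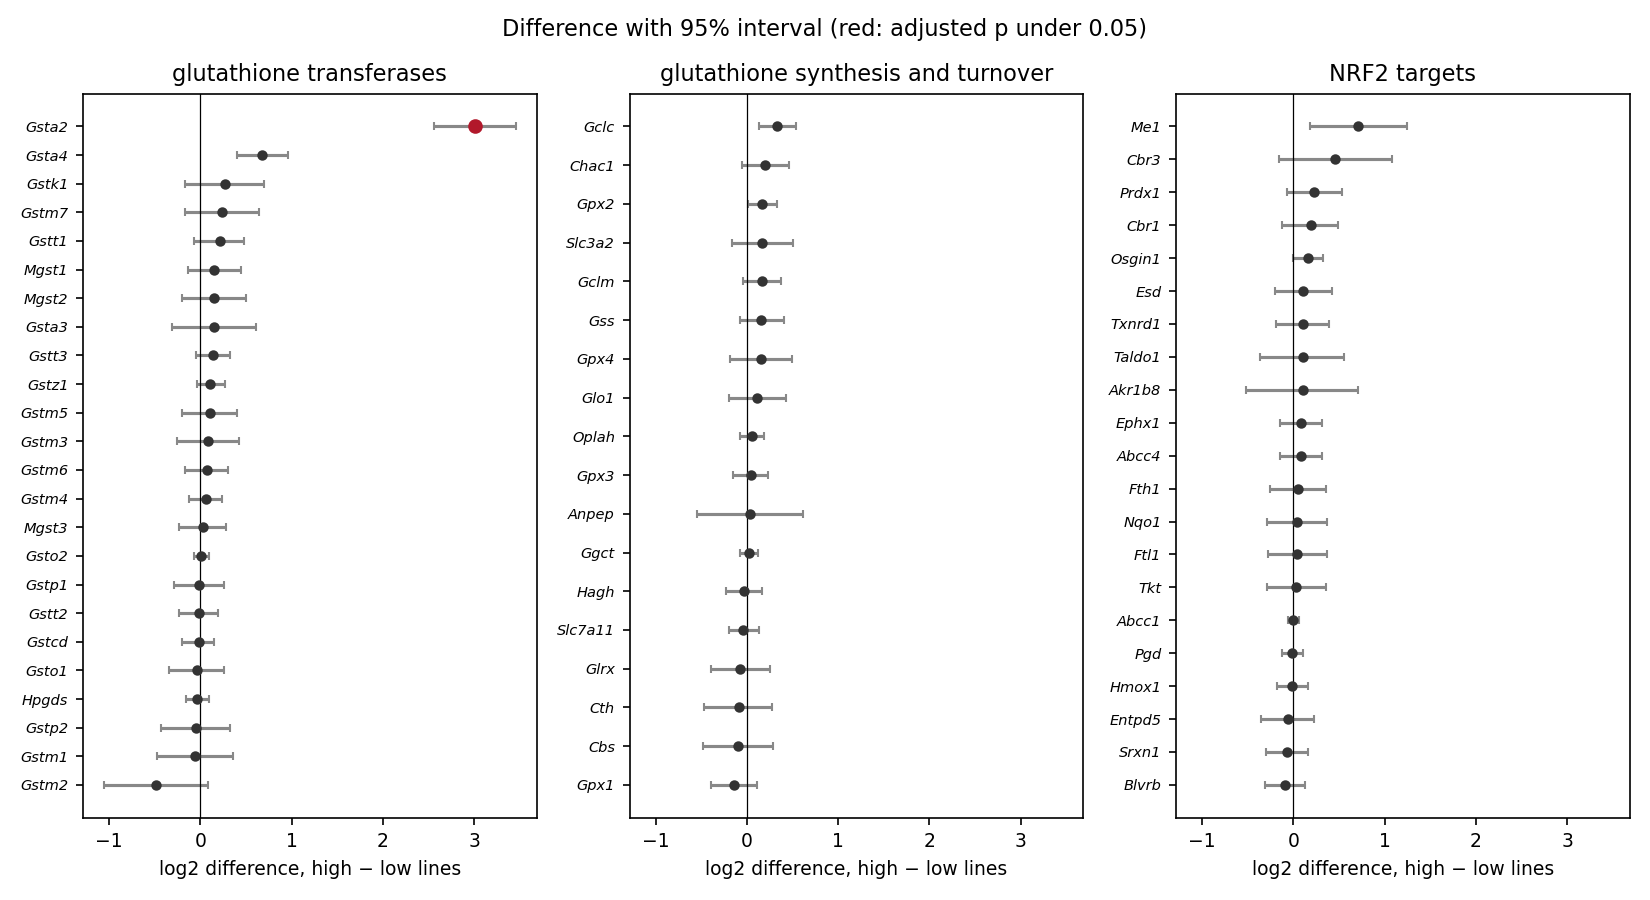
Difference between 21 high and 21 low lines (log2, with 95% interval) for members above background of the glutathione transferase, glutathione synthesis and turnover and NRF2 target lists. Gsta2 (3.01, red) is the one member with an adjusted p under 0.05, and Gsta4 (0.68), Me1 (0.71) and Gclc (0.33) lead the others of their lists.

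Among the wider set of detoxification genes none passed. Of 23 cytochrome P450 genes above background, 0 passed and 1 was higher and 1 lower at an unadjusted p under 0.05 (Cyp2j9, 0.27 ± 0.09, and Cyp2d34, -0.36 ± 0.17), against 1.68% higher and 0.904% lower of all genes above background, with a median of 0.08. Of 36 other conjugation and oxidation enzymes, 0 passed and 2 were higher at that level, against the same 1.68%, Ugt2b36, a glucuronosyltransferase (0.50 ± 0.17), and Aldh1a1, a retinal dehydrogenase (0.36 ± 0.17), with a median of 0.05. None of 22 xenobiotic sensors and pumps was at an unadjusted p under 0.05 (median 0.06).

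Low p-values were more frequent on chromosome 9, where Gsta1 lies, than on any other autosome. Among the 7 of 11840 genes with an unadjusted p under 0.001 (0.0591%), 4 lay on chromosome 9, namely Gsta2, Gsta4, Ube2cbp and Myo5c. The other 3 were 1500011B03Rik (-0.21), Igfbp2, a binding protein of insulin-like growth factors (0.25), and Ifi27l2b, of an interferon-inducible family (0.88). Apart from Gsta2 and Gsta4, these genes were named after their values were seen. At an unadjusted p under 0.01 there were 21 of 686 chromosome 9 genes (3.06%) and 37 of 11138 genes of other chromosomes (0.332%). The next autosome, chromosome 19, had 1.18%. The share at an unadjusted p under 0.05 fell with distance from Gsta1: 5 of 19 genes within 2 Mb (26.3%), 3 of 16 between 2 and 5 Mb (18.8%), 5 of 41 between 5 and 10 Mb (12.2%), 12 of 112 between 10 and 20 Mb (10.7%) and 20 of 498 farther away (4.02%), against 2.33% on other chromosomes together. Single autosomes ran between 0.484% (chromosome 14) and 5.28% (chromosome 1) at that level, beside 6.56% for the whole of chromosome 9. The mitochondrial genome had 2 of 8 genes and the Y chromosome 1 of 5. Neighbouring genes of 1 line share descent and are not independent, so these shares are a description.

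Within 2 Mb, the 5 genes were Gsta2, Gsta4, Gclc, Tinag and Lrrc1, each higher in high lines. Tinag, a basement membrane glycoprotein first known from kidney, had 8.52 ± 0.35 in high lines and 8.24 ± 0.24 in low lines, a difference of 0.28 ± 0.09 (limma, estimate ± SE, adjusted p = 1.0). Lrrc1, a leucine-rich repeat scaffold protein, had 9.09 ± 0.28 in high lines and 8.78 ± 0.62 in low lines, a difference of 0.32 ± 0.14. The other genes within 2 Mb had an unadjusted p of 0.05 or more, among them genes nearer to Gsta1 than Gclc, Tinag and Lrrc1. Elovl5, a fatty acid elongase 0.31 Mb before it, differed by -0.15 ± 0.12, Fbxo9, 0.15 Mb before it, by -0.01 ± 0.09, Cgas, the cytosolic DNA sensor 0.20 Mb after it, by -0.07 ± 0.09, and Eef1a1, a translation elongation factor 0.25 Mb after it, by -0.05 ± 0.07.

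Farther along the chromosome the direction was mixed. At an unadjusted p under 0.05, 2 genes were higher and 3 lower in high lines between 5 and 10 Mb from Gsta1, 7 higher and 5 lower between 10 and 20 Mb, and 15 higher and 5 lower beyond, so that over the whole chromosome 32 were higher and 13 lower. The 5 genes described next were also named after their values were seen, 1 as a higher and 4 as lower ones. Pclaf, a PCNA-binding factor of DNA replication 12.34 Mb before Gsta1, had 8.59 ± 0.98 in high lines and 7.87 ± 0.83 in low lines (0.72 ± 0.27). Ube2cbp, 8.08 Mb after Gsta1, had 6.45 ± 0.26 in high lines and 6.76 ± 0.21 in low lines, a difference of -0.31 ± 0.07 (limma, adjusted p = 1.0), close to the background level of 6.31. Tex9, 5.77 Mb before Gsta1, had 8.87 ± 0.62 in high lines and 9.52 ± 0.68 in low lines (-0.66 ± 0.20). Thsd4, a matrix protein of the thrombospondin repeat family 18.26 Mb before Gsta1, had 7.56 ± 0.36 in high lines and 8.19 ± 0.77 in low lines (-0.63 ± 0.18), and a second Thsd4 probe above background differed by -0.49. Snhg5, a small nucleolar RNA host gene 10.29 Mb after Gsta1, had 7.19 ± 0.26 in high lines and 7.71 ± 0.76 in low lines (-0.52 ± 0.17). Probes over founder variants were not removed from the deposited table. Whether such a variant or the transcript level set a difference was not tested for any gene here, Gsta1, Gsta2 and Gsta4 included.

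**Figure D5:**
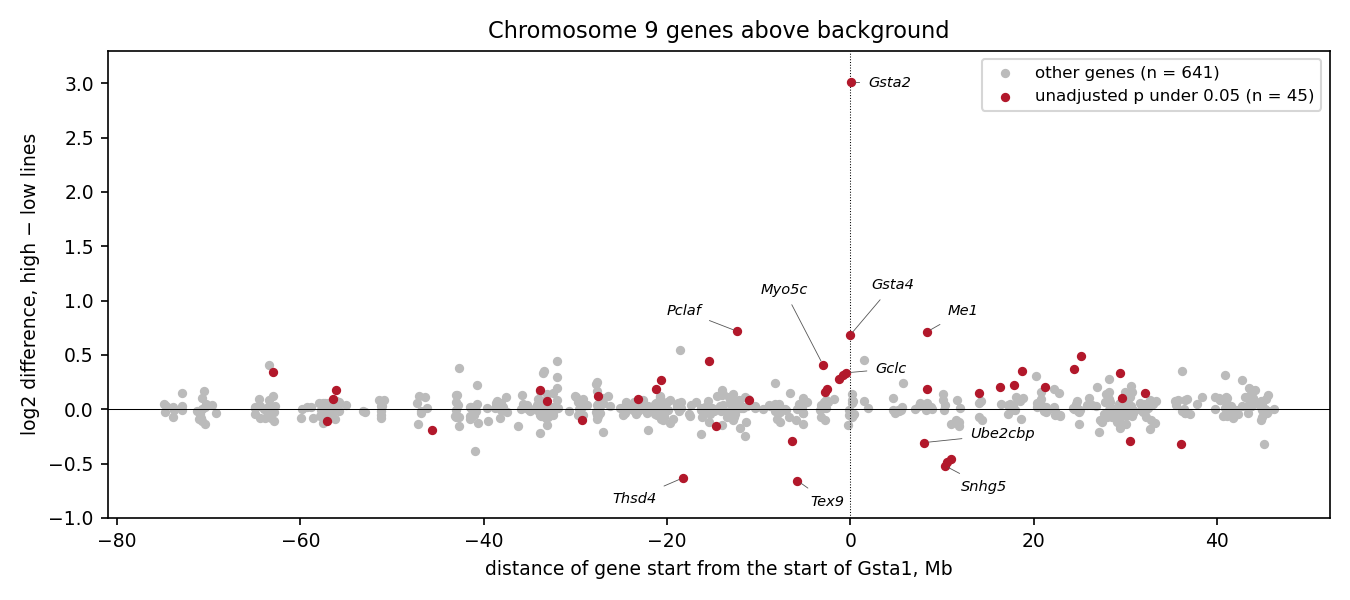
Difference between high and low lines (log2) of 686 chromosome 9 genes above background against the distance of their start from that of Gsta1 (Mb, negative before Gsta1). Red points (45 genes) have an unadjusted p under 0.05. Gsta2 stands alone at 3.01, and 25 of the 188 genes within 20 Mb are red.

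The cell makeup of the samples was set beside the contrast, since in whole pellets fewer cells of a type and less RNA per cell cannot be told apart. Absorptive colonocyte markers (17 above background) averaged 10.73 ± 0.16 in high lines and 10.74 ± 0.25 in low lines, and smooth muscle markers (10) 10.67 ± 0.28 in high lines and 10.58 ± 0.18 in low lines, so both the labelled tissue and muscle were represented in both groups. No member of the absorptive colonocyte, goblet, tuft, proliferation, smooth muscle, fibroblast, B cell, T cell or macrophage lists was at an unadjusted p under 0.05. The enteroendocrine hormone-granule genes Chga (0.24 ± 0.11) and Chgb (0.31 ± 0.13) were higher at that level, 2 of 9 members against 1.68% of all genes above background. MHC class II genes had the lowest list median, -0.26, with 7 of 10 members lower, none of them at an unadjusted p under 0.05. Their mean ran between 7.44 and 8.92 in high lines and between 7.07 and 9.80 in low lines. Of the 7 remaining lists (adipocyte, exocrine pancreas, red cell, microbe-induced epithelial, interferon response, circadian clock and cholesterol synthesis genes), 1 member was at an unadjusted p under 0.05, the amylase Amy2a5 (0.35 ± 0.16, 1 of 3 exocrine pancreas members above background), and the list medians lay between -0.02 and 0.21. The part of these cell types in the Gsta1 contrast was not tested.

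Small intestinal genes were higher in 17 of 18 members, with a median of 0.17 and none at an unadjusted p under 0.05. The mean of the list ran between 7.46 and 9.89 in high lines and between 7.49 and 8.53 in low lines, and it rested on 2 high lines at 9.89 and 9.76, whose Gsta1 was 12.84 and 12.30. The lipoprotein gene Apoa4, an enterocyte marker, had 6.87 ± 1.39 in high lines and 6.43 ± 0.41 in low lines. Without these 2 lines the list median was 0.01 and Apoa4 differed by 0.01, while Gsta2 differed by 2.91, Gsta4 by 0.65, Gclc by 0.35 and Myo5c by 0.43, and Gsta2 was again the 1 probe called.

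The contrast did not differ detectably between the sexes or between the number series. In the test of the sex difference, 0 of 45278 probes passed (12.5% at an unadjusted p under 0.05), and Gsta2's high-minus-low difference was -0.09 ± 0.35 in females relative to males (limma, estimate ± SE, adjusted p = 0.934). Gsta4's was 0.38 ± 0.17 (adjusted p = 0.364). In the test of the series difference, 0 passed (5.03% at an unadjusted p under 0.05), with an adjusted p of 0.995 for Gsta2.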

How the data were processed

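The authors deposited linear array intensity values for 45281 probes (BeadStudio 3.0.19, rank-invariant normalization, no background subtraction, per the paper's methods and the submitters' notes), with probes over founder variants still included. Arrays with any value below 0 (8) were left out. Values under 16 were set to 16, log2 was taken, and lines (the first number of the animal label, an uncertain reading) with 2 or more mice were averaged. A probe was above background if its mean was over log2 6.31, the 95th percentile of the means of 1540 chemoreceptor probes (olfactory, vomeronasal and taste). Fits used limma 3.58.1 in R 4.3.3 with Benjamini-Hochberg adjustment over all probes other than Gsta1's. The cross-sex fits adjusted over all 45281 probes, Gsta1's included, and the alternative on probes above background over those 21652. SDs and SEs are over lines, and a p without the word adjusted is unadjusted. A gene is represented by its brightest probe. Symbols are those of the platform's gene table after an update to RefSeq (34885 probes with 1 gene, 18 with several, 10378 without). Named are Gsta1, genes past the threshold with 1 sign in both sexes and series (Gsta2), genes within 2 Mb, list members, and others said to be chosen after their values were seen. The members and the 26 gene lists were chosen with earlier results of these data known. The fit was tested on simulated differences in shuffled lines. Of 197 mice with a labelled sex, 3 lay on the other sex's side for Xist and Y-linked genes, none of them in the high or low lines. Tables were made with Python 3.11.15. The number of arrays limits the precision, and p-values measure the spread between these lines.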

Additional observations from a re-analysis of the deposited data

How the results depend on the processing

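The count of probes called higher between high and low lines was 1 (Gsta2) under quantile normalization, a floor of 32, subtraction of the 5th percentile, no array left out, wider top and bottom groups, the number series as a block, smooth muscle or colonocyte markers as a covariate, probes above background alone, robust eBayes, either number series alone and either sex alone, and 0 probes were called lower in each. It was 3 with a slope on Gsta1 over all lines (Gsta2, Gsta4 and Myo5c) and 2 with single mice and the line as a random block (Gsta2 and Gsta4). The limit of the block fit for Gsta4 is given above. Alternatives chosen after seeing the data (22 lines a side, and leaving out 2 lines of high small intestinal score) also gave 1. Leaving out lines with a mouse of mismatched sex markers took no line from the high or low group, so it could not change the count. In these settings other than the slope, Gsta2 differed by 2.38 to 3.35 (limma, adjusted p between 2.37e-17 and 0.00573, the higher one in the high number series alone) and Gsta4 by 0.46 to 0.84 (adjusted p between 0.0117 and 1.0). The cross-sex and middle-line fits called 0 probes under their alternatives too. No paired analysis was possible because the compared groups are lines, each in 1 group alone. The mean signal of Gsta1, Gsta2 and Gsta4 (10.11, 8.9 and 9.05) was well above the background of log2 6.31. The lowest means of low lines (6.92, 6.91 and 7.53) came nearer to it. Array values have no counting depth.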
